A study of Mus musculus with 28 samples.

Results

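Alveolar macrophages (AM) of female SP-A knockout (KO) mice were compared after ozone (O3) and after filtered air (FA), using the deposited table whose 6 libraries carry KO female titles. These 6 libraries, 3 after O3 and 3 after FA, were taken by their labels out of 28 in the series, and all 403 miRNAs listed for them were kept. The mice were 12 weeks old, of the C57BL/6 strain, and lacked SP-A in both groups, so that exposure was the labelled difference between them. According to the methods, the females were matched for the estrous cycle. Groups of 4 animals breathed FA or O3 for 3 h in parallel, and AM were collected by lavage of the airspaces after 4 h of recovery. The libraries held small RNA from these cells. The labels do not tie a library to an animal, and 3 libraries stand for a group of 4 animals, so p-values measure the spread between these libraries. The KO males (6 libraries) and the co-ex females (8 libraries) served to ask whether the change after O3 differed. Both had the same age, exposure and recovery. The only SP-A of the co-ex females comes from transgenes for human SP-A1 and SP-A2 on the knockout background.

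AM are the resident phagocytes of the airspace, and SP-A is a lectin of the surfactant layer that binds microbes and regulates these cells. O3 is an oxidant gas that injures the lining epithelium of the airways, above all its ciliated cells. A miRNA is cut from a hairpin, loaded as a single strand into an Argonaute protein, and pairs with mRNAs mainly through its seed, the bases 2 to 8 from its 5′ end. miRNAs of the same seed therefore share many predicted targets, and miRNAs of neighbouring hairpins are often cut from the same primary transcript.

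The following mature sequences belong to the miRNAs on which the results turn. They are RefSeq sequences of the mouse build GRCm38.p6, which held an entry for 346 of the 403 miRNAs, and the capitals mark the seed. The first 5 form the miR-200 family, which carries 2 seeds that differ in a single base and keeps epithelial cells epithelial by repressing the Zeb factors.
miR-200b-3p: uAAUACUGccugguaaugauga
miR-200c-3p: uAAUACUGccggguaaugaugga
miR-429-3p: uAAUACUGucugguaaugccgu
miR-200a-3p: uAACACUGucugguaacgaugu
miR-141-3p: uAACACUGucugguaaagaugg

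The next 3 come from the miR-34 and miR-449 group, which is abundant in multiciliated cells and needed for cilia to form. The 3p arms of miR-34b and miR-34c share a seed and differ at 5 of 22 bases.
miR-34b-3p: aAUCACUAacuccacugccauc
miR-34c-3p: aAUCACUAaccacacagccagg
miR-449a-5p: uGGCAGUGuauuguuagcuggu

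The let-7 sequences are shown because members that differ by 1 or 2 bases did not change alike. let-7 miRNAs repress growth genes such as Hmga2 and Ras.
let-7a-5p: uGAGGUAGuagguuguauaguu
let-7d-5p: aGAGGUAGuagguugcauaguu
let-7e-5p: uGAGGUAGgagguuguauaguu
let-7c-5p: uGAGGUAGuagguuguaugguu
miR-1961: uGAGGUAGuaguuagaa

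Pairs of shared seed with unlike changes are shown next, followed by rising miRNAs whose bases are either rich in G and C or shared with transcripts of many genes.
miR-92b-3p: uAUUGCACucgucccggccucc
miR-92a-3p: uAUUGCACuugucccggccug
miR-125a-5p: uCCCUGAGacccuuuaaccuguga
miR-125b-5p: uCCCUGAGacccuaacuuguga
miR-6538: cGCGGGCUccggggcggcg
miR-2137: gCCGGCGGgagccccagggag
miR-3470b: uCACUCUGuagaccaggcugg
miR-3473e: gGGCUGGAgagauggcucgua

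The deposited values are read counts divided by a size factor of the library, called normalized units here, and all of them were whole multiples of the lowest value above 0 in the library, taken as 1 read, within a relative tolerance of 1e-06. The FA libraries held between 744541 and 1002869 reads and the O3 libraries between 111080 (replicate 2) and 634775, so each FA library was deeper than each O3 library. A miRNA without a read may still stand for up to 3 reads, or 1.69 to 2.20 normalized units in the FA libraries and 2.32 to 12.9 in the O3 libraries. Intervals of this kind cover counting error only, since amplified reads are not independent molecules. FA replicates 2 and 3 carry library numbers apart from those of the other 4 libraries, and what these numbers mark is not given in the sources used here. Some O3 libraries stood apart for single miRNAs. In O3 replicate 3, the muscle miRNA miR-1a-3p stood at 37941 normalized units, or 7.74% of the library total, and at 276 or less in every other library. Its usual companion miR-133a-3p stood at 3867 there and at 68.9 or less elsewhere. In O3 replicate 2, miR-6236 stood at 22091 and miR-8117 at 11935 units, against at most 939 and 71.2 elsewhere. None of these 4 was past the threshold, and miR-133a-3p was not tested.

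In KO females, a small number of miRNAs rose steeply after O3 and a smaller set, with the most abundant miRNA among them, fell. By limma on log2(normalized value + 1), 42 of the 319 tested miRNAs (13.2%) passed the study's threshold of 0.1 on the adjusted p (Benjamini-Hochberg), 32 of them higher and 10 (3.13%) lower after O3. The unadjusted p was under 0.05 for 82. Libraries of the exposures did not overlap for 100 tested miRNAs (31.3%), with all O3 libraries above all FA libraries for 61 (19.1%) and below for 39 (12.2%), and all 42 were among them. The log2 fold change had a median of 0.06 over the tested miRNAs, 3.99 over the 32 that rose and -1.71 over the 10 that fell. The added 1 pulls the change of miRNAs with few reads toward 0, while a 0 in 1 library can enlarge it.

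The rises and falls differed in kind. The 32 that rose held 0.801% to 1.22% of the library total after FA, and 7.98%, 16.5% and 9.94% in O3 replicates 1, 2 and 3. The 10 that fell held 27.0% to 31.6% after FA and 19.7%, 11.5% and 12.7% after O3. Their mean levels had medians of 329 normalized units for the rises and 3347 for the falls, against 87.3 over the tested miRNAs. For 26 of the 28 rises with reads after FA, the lowest O3 library was at least 2-fold above the highest FA library, and for 3 of the 10 falls the lowest FA library was at least 2-fold above the highest O3 library. Among the 32 rises, O3 replicate 2 was the highest O3 library for 16 and O3 replicate 1 the lowest for 21. For 9 of the 10 falls, O3 replicate 1 was the O3 library nearest to FA. Of the 32 rises, 7 passed the filter on low values through the O3 libraries alone and had to differ to be tested. Others, such as miR-34c-3p and miR-3473e, were near 0 in most FA libraries and also needed O3 libraries to pass. Of the 84 miRNAs that were not tested, 74 had a mean under 10 units.

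**Figure D1:**
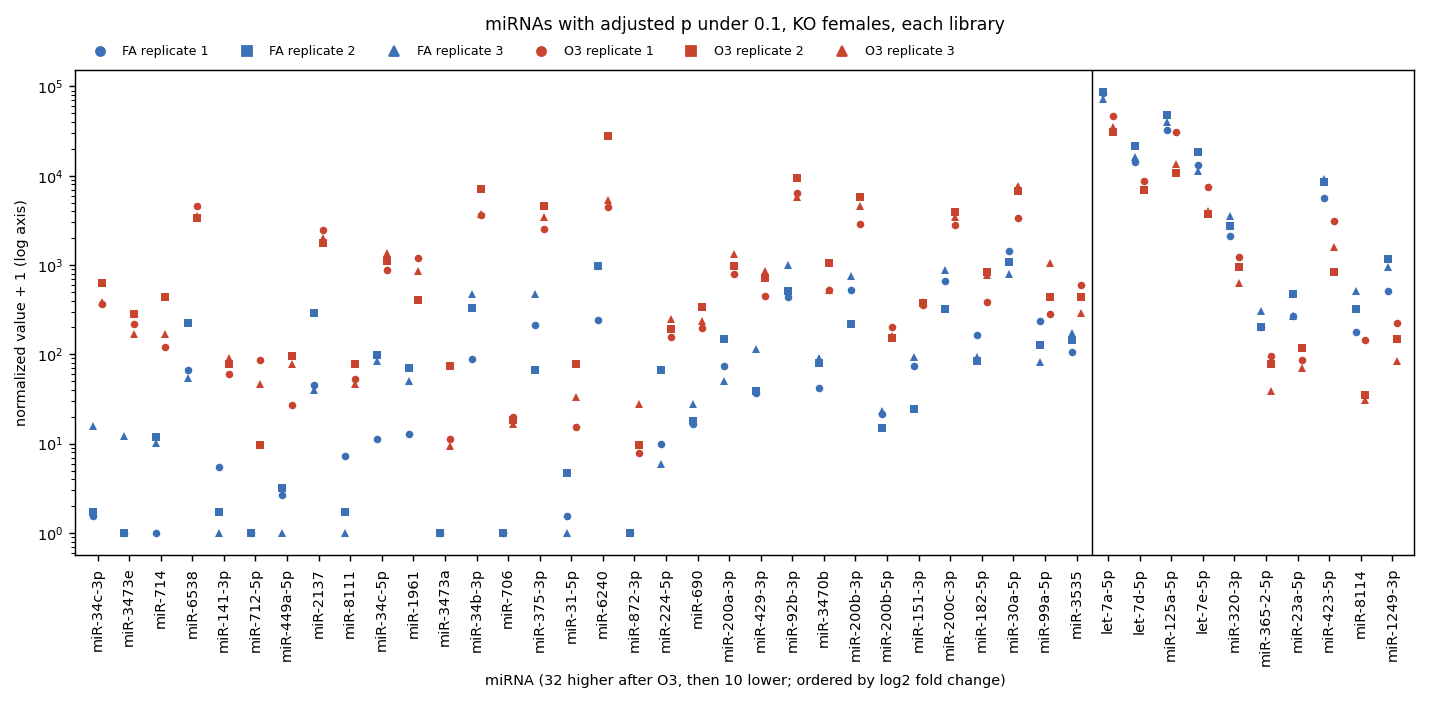
Normalized value plus 1 (log axis) of each of the 42 miRNAs with an adjusted p under 0.1 in limma, in each FA (blue) and O3 (red) library of KO females, with 1 symbol per replicate. The 32 miRNAs left of the line were higher after O3 and the 10 to the right lower, and the libraries of the exposures do not overlap for any of the 42.

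**Figure D2:**
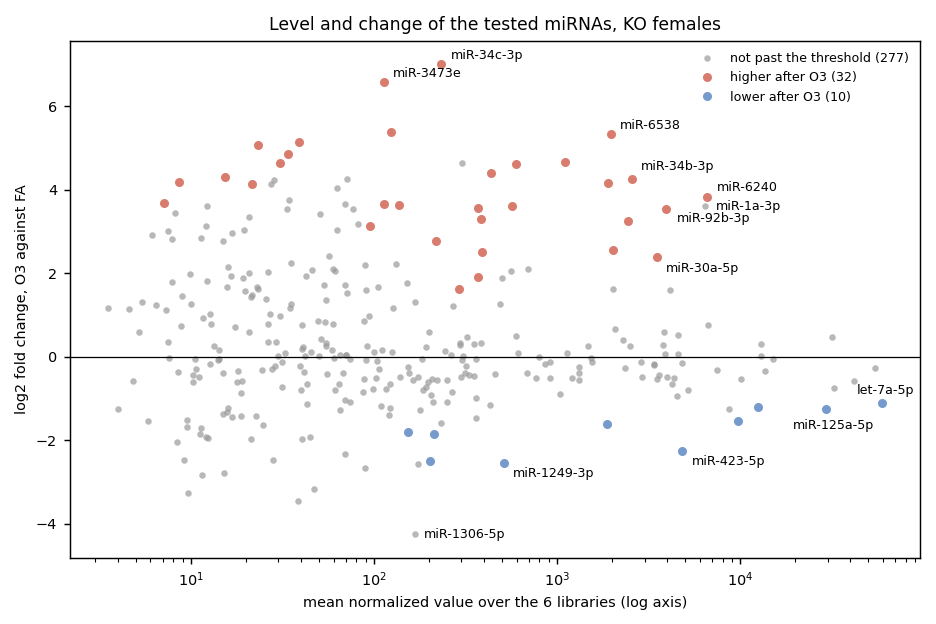
Mean normalized value over the 6 libraries (log axis) against the log2 fold change of O3 against FA for the 319 tested miRNAs, 1 point each. Red points (32) were higher and blue points (10) lower after O3, and the blue points all have means above 100 units.

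miRNAs of epithelial cells were a part of the rises, 10 of the 32 by count. Of the 15 miRNAs on a list of epithelial miRNAs, all of them tested, 10 rose and 0 fell, beside 32 of all 319 tested miRNAs that rose. For 12 of the list all O3 libraries were above all FA libraries, beside 19.1% of all tested miRNAs. The median log2 fold change of the list was 3.53, against 0.06 over the tested miRNAs. Their summed level was 1882, 1094 and 2576 normalized units after FA and 10884, 18297 and 15759 after O3. Of the 10, miR-141-3p and miR-31-5p passed the filter through the O3 libraries alone. As each library was left out in turn, between 6 and 11 of the list rose, with 6 without O3 replicate 3 and 8 without FA replicate 1 or O3 replicate 2. In a bulk library, more cells of a type and more RNA per cell cannot be told apart. This list and those below were chosen with earlier results of these data known, so their counts are descriptions.

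The miR-200 family led this group. miR-200b-3p was the most abundant member, with 521, 219 and 745 normalized units after FA and 2898, 5716 and 4526 after O3. The lowest O3 library thus lay 3.89-fold above the highest FA library, and the log2 fold change was 3.26 (SE 0.48, adjusted p = 0.00523 from limma). For miR-200c-3p the values were 669, 324 and 874 after FA and 2835, 3937 and 3487 after O3, with a log2 fold change of 2.56 (SE 0.39). miR-429-3p had 36.1, 38.1 and 115 units after FA and 454, 715 and 847 after O3 (log2 fold change 3.56, SE 0.57). Members of the other seed moved the same way. The values of miR-200a-3p were 73.9, 149 and 49.6 after FA and 799.6, 986 and 1329 after O3, a log2 fold change of 3.62 (SE 0.49). miR-141-3p was hardly read after FA, at 4.52, 0.732 and 0 units, and had 59.4, 77.5 and 89.6 after O3.

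These 5 miRNAs come from 2 clusters of hairpins that lie on different chromosomes, and both clusters rose. miR-200b, miR-200a and miR-429 lie at chr4:156053905-156055750 of GRCm38.p6 on the minus strand, in introns of Ttll10. Of the 5 mature strands tested there, 4 rose, including the minor strand miR-200b-5p (18.9 ± 4.401 units after FA and 171 ± 26.1 after O3, SD, n = 3), and miR-200a-5p, with a log2 fold change of 0.77, did not pass. miR-141 and miR-200c lie at chr6:124717914-124718390, in introns of Gm15884.

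Outside the miR-200 family, miR-375-3p, a miRNA of secretory and endocrine epithelium, had 212, 66.6 and 475 units after FA and 2519, 4604 and 3445 after O3. All O3 libraries were at least 5.31-fold above all FA libraries, and the log2 fold change was 4.17 (SE 0.65, adjusted p = 0.00523 from limma). miR-182-5p, of a cluster known from sensory epithelia, rose from 114 ± 43.7 to 662 ± 243 units (SD, n = 3). Its cluster neighbour miR-183-5p had 98.2, 0 and 96.4 units after FA and 393, 668 and 565 after O3. Here the libraries did not overlap either, but the 0 in FA replicate 2 widened the spread and the adjusted p was 0.128 in limma. miR-224-5p, from an intron of Gabre on chromosome X, had 9.03, 65.2 and 4.89 units after FA and 155, 194 and 251 after O3 (adjusted p = 0.0535 from limma). miR-31-5p had 1.41 ± 1.97 units after FA and 41.5 ± 32.5 after O3 (SD, n = 3). The calls of miR-224-5p and miR-31-5p each held in 2 of 6 fits without a library. The miRNAs of the list that did not pass were miR-200a-5p, miR-183-5p, miR-205-5p, miR-203-3p and miR-96-5p.

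miRNAs of ciliated cells rose as well, and the largest log2 fold change was among them. Of 8 on the list, 7 were listed and 5 tested, and 4 of these rose, beside 32 of all 319 tested miRNAs. miR-449a-5p passed the filter through the O3 libraries alone, and miR-34c-3p needed O3 libraries as well. The summed level of the 7 was 114, 433 and 590.1 normalized units after FA and 4901, 9110 and 5596 after O3. miR-34c-3p had the largest log2 fold change of all tested miRNAs, 7.004 (SE 1.06, adjusted p = 0.00523 from limma). It was read at 0.564, 0.732 and 14.7 units after FA and at 362, 633 and 389 after O3, so that the nearest libraries lay 24.7-fold apart. The other strand of the hairpin, miR-34c-5p, had 10.2, 96.7 and 82.4 units after FA and 878, 1111 and 1379.6 after O3. The more abundant miR-34b-3p had 88.05, 333 and 476 units after FA and 3625, 7184 and 3724 after O3, a log2 fold change of 4.25 (SE 0.61). Both hairpins lie at chr9:51103034-51103645, in an intron of Btg4 on the opposite strand. miR-449a-5p, from an intron of Cdc20b on chromosome 13, carries the same seed as miR-34a-5p. It was read at no more than 2.20 units after FA and at 26.3, 94.8 and 77.2 after O3. miR-34a-5p itself, which p53 induces, had 423, 326 and 293 units after FA and 229, 202 and 316 after O3, with overlapping libraries and a log2 fold change of -0.49 (SE 0.38). Between 3 and 5 of the ciliated list rose as each library was left out.

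Of the miRNAs that mark macrophages and myeloid cells, all 10 were tested and 0 passed in limma, beside 13.2% of all tested miRNAs. In DESeq2, 1 was lower. For 2, all O3 libraries were below FA, beside 12.2% of all tested miRNAs, and the median log2 fold change was -0.41. Their summed level was 18450, 23889 and 18347 units after FA and 17557, 12904 and 15741 after O3. Its largest member was miR-24-3p, with 7438 units in FA replicate 1 and 7706 in O3 replicate 3. miR-24-3p is also on the list of the miR-23, miR-24 and miR-27 clusters. The markers, except miR-511-3p at 0 in FA replicate 3, were read in every library. miR-223-3p, the most specific of them for myeloid cells, had 3000.4, 3946 and 3212 units after FA and 2685, 2421 and 2091 after O3. These libraries did not overlap, and the log2 fold change was -0.49 (SE 0.23, adjusted p = 0.233 from limma). miR-342-3p had a log2 fold change of -0.65 (SE 0.28). The sum of the epithelial list was thus below the sum of the macrophage list in 4 libraries, above it in O3 replicate 2 and about equal to it in O3 replicate 3.

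Lists for other cells of the lung were measured with the same fit, in which 13.2% of all tested miRNAs passed. Of the mesenchymal and endothelial list, 9 of 10 listed were tested and 0 passed in limma. For 4, all O3 libraries were above FA, beside 19.1% of all tested miRNAs. DESeq2 called 3 of them higher and edgeR 1, and limma called 3 without FA replicate 1. Their summed level was 228 to 866 units after FA and 989.7, 2240 and 3511 after O3. The endothelial miR-126a-3p had 5.08, 8.06 and 2.79 units after FA and 17.8, 73.2 and 306 after O3 (adjusted p = 0.113 from limma). Of the red cell list, 3 were tested and 0 passed in limma. miR-486b-5p stood at 18233, 14522 and 3182 units after FA and at 2579, 11388 and 2117 after O3, and the erythroid miR-451a at 29.3 or less in every library. Of the lymphocyte list, 4 were tested and 0 passed in limma. The muscle list held miR-1a-3p and miR-133a-3p, whose rise in O3 replicate 3 is given above. What part cells other than macrophages had in the changes after O3 was not tested.

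**Figure D3:**
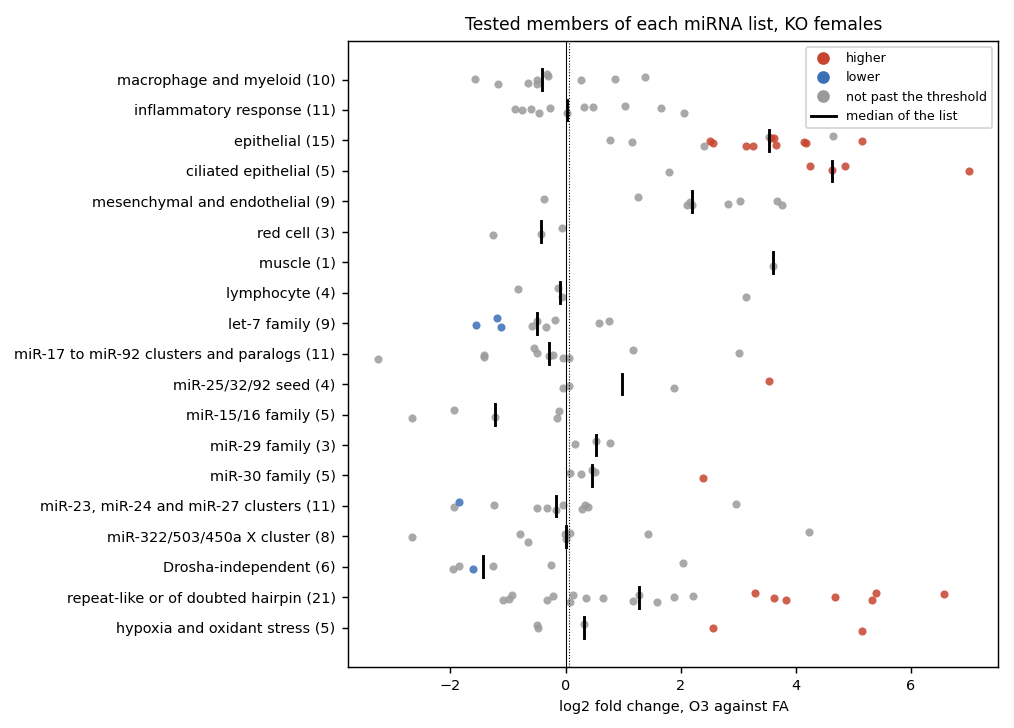
Log2 fold change of O3 against FA for each tested member of 19 miRNA lists in KO females, 1 point per miRNA, with the number tested in parentheses, the median of the list as a black bar and the median of all tested miRNAs (0.06) as a dotted line. The epithelial and ciliated lists lie to the right with most points red (higher), and all points of the macrophage and inflammatory lists are grey (not past the threshold).

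Another set of rises had no cell type list. miR-92b-3p, which shares its seed with miR-92a-3p and differs from it at 2 of 21 bases, had the smallest adjusted p together with miR-6538. It was read at 434, 507 and 1004 units after FA and at 6379, 9355 and 5815 after O3, a log2 fold change of 3.54 (SE 0.37, adjusted p = 0.00143 from limma). miR-92a-3p, from the miR-17 to miR-92 clusters, had 5440.3, 3784 and 4187 units after FA and 4660, 5599 and 3747 after O3, and its libraries overlapped (log2 fold change 0.06, SE 0.25). The remaining tested miRNAs of this seed, miR-25-3p and miR-32-5p, did not pass. The other strand of the miR-92b hairpin, miR-92b-5p, was at 26.0 ± 20.3 units after FA and 35.4 ± 12.1 after O3 (SD, n = 3). Among the 11 tested miRNAs of the miR-17 to miR-92 clusters and their paralogs, 0 passed in limma, beside 13.2% of all tested miRNAs.

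Within the miR-30 family only miR-30a-5p of 5 members rose. It is encoded on chromosome 1 and is known to repress the autophagy gene Beclin 1. Its values were 1447, 1070.0 and 801 units after FA and 3400.3, 6732 and 7679 after O3 (log2 fold change 2.38, SE 0.37, adjusted p = 0.00523 from limma). The most abundant member, miR-30d-5p, had 31998, 21455 and 26395 units after FA and 40051, 27040.1 and 44061 after O3, with overlapping libraries. miR-99a-5p, which represses mTOR, had 236, 125.2 and 81.01 units after FA and 283, 444 and 1058 after O3. Its adjusted p of 0.098 in limma was the closest of the 42 to the threshold, and the call held in 2 of 6 fits without a library. miR-99b-5p, of the same seed and with means of 12588 ± 764 after FA and 13310 ± 4968 after O3 (SD, n = 3), had a log2 fold change of 0.02. miR-151-3p rose from 62.6 ± 35.2 to 374 ± 13.4 units and miR-3535 from 139.6 ± 33.2 to 442 ± 155 (SD, n = 3), the latter in 3 of 6 fits without a library.

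Several rises belonged to miRNAs that are rich in G and C or share their bases with many transcripts. Of the 49 tested miRNAs with at least 60% G and C, 5 rose and 3 fell. This stands beside 27 and 9 of the 276 tested miRNAs with a RefSeq sequence. The share that rose was thus near that of all, and a high content was not a trait of the rises. miR-6538, 94.7% G and C, lies in an intron of Rnf144a on chromosome 12. It was read at 66.6, 224 and 53.8 units after FA and at 4547, 3334 and 3520.4 after O3, a log2 fold change of 5.32 (SE 0.53). miR-2137, 85.7% G and C and in an intron of Zfp185 on chromosome X, had 44.6, 289 and 39.1 units after FA and 2468, 1762 and 2026 after O3 (log2 fold change 4.67, SE 0.72). In both, O3 replicate 1 was the highest library, as for 7 of the 32 rises. miR-6240 rose too (log2 fold change 3.83, SE 0.77), with 4509.7, 27656 and 5335 units after O3, and the value in O3 replicate 2 was over 5 times either of the others.

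Of the tested miRNAs, 7 had their first 18 bases in transcripts of at least 10 other genes of the GENCODE vM21 annotation, and 4 of the 7 rose, beside 32 of all 319 tested miRNAs. These were miR-3470b (664 genes), miR-3473e (401), miR-706 (344) and miR-3473a (146). The value of miR-3473e was 0, 0 and 11.2 units after FA and 216, 284 and 168 after O3, a log2 fold change of 6.57 (SE 1.21, adjusted p = 0.0111 from limma). miR-3470b had 40.6, 79.8 and 90.1 units after FA and 521, 1055 and 527 after O3. miR-3473a, which shares a run of 14 bases with miR-3473e, was at 0 in all FA libraries. miR-1195, with its first bases in 613 genes, had 269, 365 and 383 units after FA and 194, 168 and 118.9 after O3 (log2 fold change -1.09, SE 0.41, adjusted p = 0.144 from limma) and did not pass. How the counting placed reads that match several sites was not given in the sources used here.

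Of the list of 25 miRNAs that are repeat-like or of doubted hairpin, 21 were tested, 7 rose and 0 fell in limma, beside 32 and 10 of all 319 tested miRNAs. DESeq2 called 1 of the list lower, and 3 were below FA in all O3 libraries, beside 12.2% of all tested miRNAs. Besides those named, miR-690 rose from 19.7 ± 5.92 to 255 ± 73.1 units and miR-714 from 6.69 ± 5.87 to 241 ± 169.6 (SD, n = 3). The summed level of the list was 9792, 16798 and 18422 units after FA and 22978, 71072 and 21230 after O3, of which miR-6240 and miR-6236 were the greater part in O3 replicate 2.

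For 4 rises all FA libraries were at 0, so only a lower bound on the fold can be given. It sets the mean of the O3 libraries against 3 reads in the FA library where these weigh most. The bound allows for the FA counts only, not for the spread or counting error of the O3 libraries. For miR-712-5p, known to come from the spacer of the ribosomal RNA precursor, the bound was 21.1-fold. For miR-3473a the bound was 13.9-fold, for miR-706 it was 7.79-fold and for miR-872-3p it was 6.44-fold. The bound of miR-3473a rested on O3 replicate 2, without which it was 4.25-fold. That of miR-712-5p was 12.3-fold without O3 replicate 1, and that of miR-872-3p 3.51-fold without O3 replicate 3. These are thin signals, and miR-3473a and miR-872-3p passed in 1 of 6 fits without a library. In O3 replicate 2, miR-712-5p and miR-872-3p rest on 2 reads each and miR-706 on 4. miR-8111 stood at 6.21 units or less after FA and at 52.6, 77.5 and 45.5 after O3, and passed in 3 of 6 fits without a library. The remaining rise, miR-1961, carries the let-7 seed and had 11.9, 68.8 and 48.9 units after FA and 1212, 409 and 857 after O3.

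The falls included the most abundant miRNA of the libraries. let-7a-5p had 83488, 87346 and 71494 units after FA and 47149, 31179 and 34978 after O3, a 2.14-fold fall of the means (log2 fold change -1.11, SE 0.21, adjusted p = 0.0126 from limma). let-7d-5p had 14306, 21553 and 16179 units after FA and 8633, 6922 and 6979.9 after O3, and let-7e-5p fell from 14302 ± 3706 to 5039.9 ± 2058 (SD, n = 3). For all 3 the lowest FA library was above the highest O3 library. let-7f-5p and let-7i-5p were below FA in all O3 libraries as well, with log2 fold changes of -0.58 (SE 0.21) and -0.50 (SE 0.28) that did not pass. let-7g-5p and miR-98-5p had overlapping libraries.

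Other let-7 members had log2 fold changes above 0. let-7c-5p, which differs from let-7a-5p at 1 of 22 bases, had 6149.8, 3535 and 5324 units after FA and 6204, 10048 and 8940.0 after O3, all O3 libraries being above all FA libraries (log2 fold change 0.76, SE 0.29, adjusted p = 0.147 from limma). let-7b-5p had 3134, 2318 and 3654 units after FA and 3343, 6306 and 4232 after O3 (log2 fold change 0.58, SE 0.30). Of 9 family members tested, 3 fell and 0 rose, beside 10 and 32 of all 319 tested miRNAs. The family took 32.1% to 35.2% of the library total after FA and 20.9% to 25.5% after O3. miR-1961, a 17-base entry, differs from let-7a-5p at 3 of its bases and moved the opposite way. Reads of near-identical members can be counted under another member, so single let-7 values are uncertain. Without O3 replicate 3, 1 of the 9 fell, and with FA replicate 1 as the only FA library 0 did.

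The hairpins of the falling let-7 miRNAs lie in 2 clusters. let-7a-1, let-7f-1 and let-7d are at chr13:48536012-48538272 of GRCm38.p6 on the minus strand, in exons of 6720427I07Rik, and the 4 mature strands tested there had log2 fold changes from -1.19 to -0.58. let-7a and let-7f are also encoded at other loci. miR-99b, let-7e and miR-125a are at chr17:17830194-17830879, within Spaca6. miR-125a-5p, the sixth most abundant miRNA and a regulator of macrophage activation, had 32690.3, 47406 and 40482 units after FA and 30965, 10837 and 13635 after O3. O3 replicate 1 lay close to FA here, and the call (log2 fold change -1.26, SE 0.38, adjusted p = 0.0801 from limma) held in 1 of 6 fits without a library. miR-99b-5p of the same cluster had a log2 fold change of 0.02. On chromosome 16, miR-99a-5p and let-7c-5p, paralogs of that cluster, had log2 fold changes of 1.92 and 0.76. miR-125b-5p, of the same seed as miR-125a-5p, had 498, 31.5 and 400.2 units after FA and 637, 629 and 1177 after O3 (log2 fold change 2.06, SE 0.96, adjusted p = 0.223 from limma). Among 29 clusters of hairpins within 10000 bases with at least 2 tested hairpins, 6 held a rise, 3 held a fall and 0 held both. Whether neighbours changed together was not tested.

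**Figure D4:**
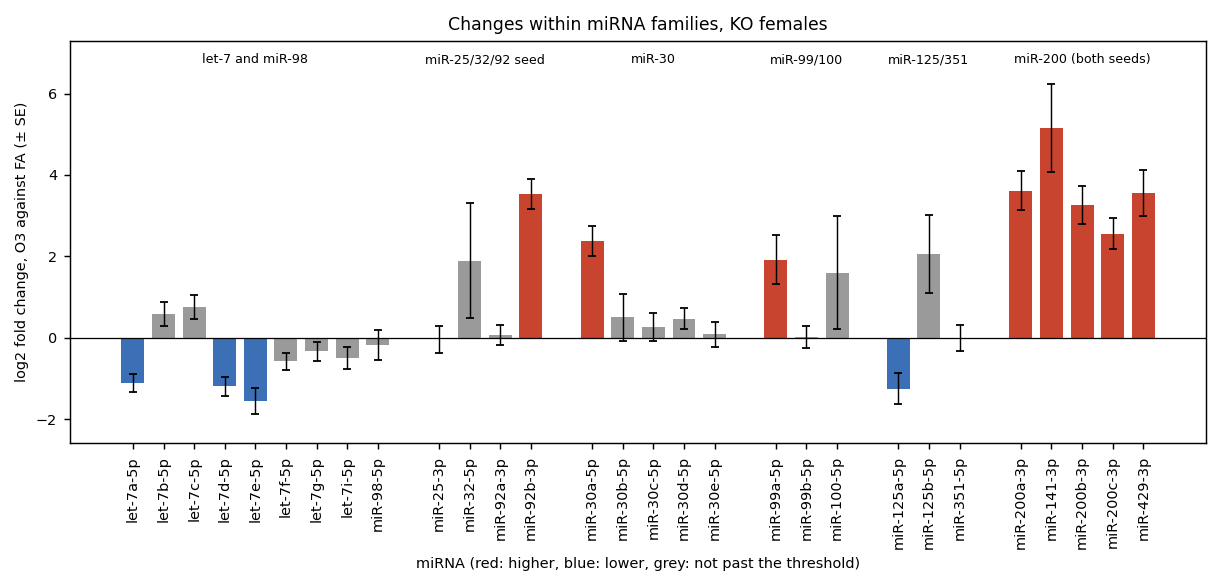
Log2 fold change of O3 against FA (bars, with the standard error from limma) for members of 6 miRNA families in KO females. In the let-7, miR-25/32/92, miR-30, miR-99 and miR-125 families some members were past the threshold (red higher, blue lower) and others were not (grey), and all 5 members of the miR-200 family were higher after O3.

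The other falls were of middle abundance. miR-423-5p, from an intron of Nsrp1 on chromosome 11, had 5672, 8549 and 9213 units after FA and 3103, 844 and 1602 after O3 (log2 fold change -2.24, SE 0.45, adjusted p = 0.0148 from limma). Its other strand, miR-423-3p, had means of 2556 ± 406 and 2136 ± 554 (SD, n = 3) and a log2 fold change of -0.28. In miR-23a, the minor strand miR-23a-5p fell from 335 ± 117 to 90.5 ± 23.5 units and the major strand miR-23a-3p had 15265 ± 1225 after FA and 14762 ± 1607 after O3 (SD, n = 3). The difference between strands was not tested. The largest fall was that of miR-1249-3p, from 869 ± 332 to 152 ± 71.4 units (log2 fold change -2.54, SE 0.50). miR-320-3p, whose precursor is made without Drosha, had 2124, 2709.8 and 3555 units after FA and 1219.7, 939 and 632 after O3 (log2 fold change -1.61, SE 0.33, adjusted p = 0.0157 from limma). It was the only miRNA of 6 tested Drosha-independent miRNAs that passed, beside 13.2% of all tested miRNAs. miR-365-2-5p and miR-8114 fell with adjusted p of 0.0848 and 0.0752 in limma, calls that held in 1 and 2 of 6 fits without a library.

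Among 68 hairpins with both strands tested, both strands passed for 2 (miR-200b and miR-34c), a single strand passed for 11, and no hairpin had strands that passed in opposite directions. The 9 falls with a RefSeq sequence had a median content of 56.5% G and C, the 27 such rises 45.5% and the 276 such tested miRNAs 48.0%.

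The miRNAs known from inflammation gave no call in limma over the 6 libraries. Of 11 tested members of that list 0 passed, beside 13.2% of all tested miRNAs, and the median log2 fold change was 0.02. With a pseudocount of 10, or with O3 replicate 1 left out, limma called 1 of them lower. miR-155-5p, induced by Toll-like receptors, had 273, 223 and 333 units after FA and 183, 633 and 183 after O3. miR-21a-5p, the second most abundant miRNA, had 64973, 62991 and 50024 units after FA and 51532, 45552 and 49677 after O3. miR-146b-5p, a brake on Toll-like receptor signalling, was below FA in all O3 libraries (37751, 45930 and 36737 against 33258, 17013 and 23489), with a log2 fold change of -0.75 (SE 0.27, adjusted p = 0.132 from limma). Of the hypoxia and oxidant stress list, 5 were tested and 2 rose, beside 32 of all 319 tested miRNAs. Both are members of the miR-200 family. The hypoxia miRNA miR-210-3p stood at 24.4 units or less in every library. Of the miR-15/16 family (5 tested), the miR-29 family (3) and the X-chromosomal cluster of miR-322, miR-503 and miR-450a (8), 0 passed in limma, and of 11 tested miRNAs of the miR-23, miR-24 and miR-27 clusters only miR-23a-5p did. The study singled out 23 miRNAs in co-ex mice from libraries of the same series, after dividing co-ex values by those of KO mice. KO libraries thus entered that choice, and its measure is not the change within KO females. All 23 were tested, and in limma 2 fell (let-7a-5p and miR-320-3p) and 0 rose, beside 10 and 32 of all 319 tested miRNAs. DESeq2 called 4 of them lower and 2 higher.

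The change after O3 was compared with that in KO males by limma over the 12 KO libraries, as a difference of the changes within the tables, because the tables were normalized separately. The question was whether the females differed from males that also lack SP-A. Of 309 miRNAs tested, 0 passed (0.0%) in limma and 0 in edgeR, and the unadjusted p of limma was under 0.05 for 17. The smallest adjusted p was 0.758, which let-7a-5p shared with other miRNAs. Its log2 fold change was -1.11 in KO females and -0.37 in KO males. The 31 rises that were also tested in males had log2 fold changes above 0 in males for all 31, with a median of 2.08. In KO males, FA replicate 3 carries a library number apart from the other libraries, as FA replicates 2 and 3 do in KO females. Whether this bears on the shared direction was not tested. The changes in KO males were 3.65 for miR-34b-3p, 2.66 for miR-92b-3p, 5.42 for miR-6538, 1.67 for miR-200b-3p and 2.92 for miR-34c-3p. Since the miRNAs were chosen by their values in females, their larger changes there are a description, and the tested differences did not pass.

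Against co-ex females, which have human SP-A, 21 of 241 tested miRNAs (8.71%) had a change after O3 that differed, and for 20 of them (8.3%) the change was higher in KO females. All 20 were among the 32 rises of KO females. Of the 20, 4 had passed the filter there through the O3 libraries alone and had to be high after O3 to be compared. Others, such as miR-34c-3p (0.564, 0.732 and 14.7 units after FA) and miR-3473e (0, 0 and 11.2), also needed O3 libraries to pass. In the co-ex females, 31 of the 32 rises were tested, with a median log2 fold change of 0.09 and values above 0 for 19. For miR-34b-3p the log2 fold change was 4.25 in KO females and -0.03 in co-ex females, a difference of 4.28 (SE 0.70, adjusted p = 0.0016 from limma). miR-375-3p had 4.17 and -0.18, a difference of 4.35 (SE 0.74). The change of miR-92b-3p was 3.54 in KO females and 0.65 in co-ex females, a difference of 2.88 (SE 0.52). In the miR-200 family the co-ex females had log2 fold changes from 0.50 to 1.06, and the difference passed for miR-429-3p and miR-200a-3p but not for miR-200b-3p, miR-200c-3p or miR-141-3p. The 10 falls gave no difference that passed. For let-7a-5p the log2 fold change was -1.11 in KO females and 0.15 in co-ex females (adjusted p = 0.247 for the difference from limma). The tables of KO and co-ex females also differ in depth, with 41542 to 488993 reads in the co-ex libraries. They differ in library numbers as well. FA replicates 2 and 3 of KO females are numbered apart from their O3 libraries, while the co-ex female libraries are numbered without a break. Genotype therefore cannot be told apart from what else differed between the tables.

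**Figure D5:**
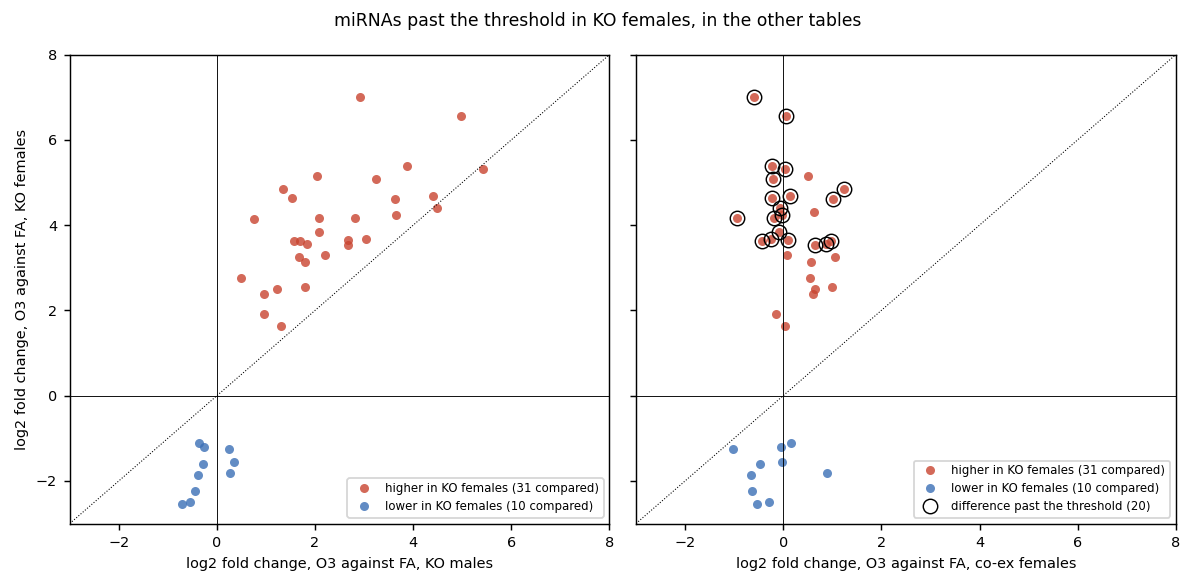
Log2 fold change of O3 against FA in KO females (vertical axes) against that in KO males (left) and co-ex females (right), for the miRNAs past the threshold in KO females that were also tested there, 1 point each, with equal changes on the dotted line. The red points (higher in KO females) are all above 0 in KO males, and gather around 0 in co-ex females, where 20 differences passed the test (circles).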

How the data were processed

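Small RNA of AM from 28 libraries was prepared with the NEXTflex kit and sequenced on an Illumina HiSeq. Per the labels, the authors filtered reads with CASAVA and FASTX-Toolkit, removed adapters, and aligned and counted miRNAs with Chimira. The reference and the treatment of reads matching several miRNAs were not given in the sources used here. The deposited signal values are read counts per miRNA that the authors divided by a size factor per library, separately for each genotype and sex, so values were compared within tables only. All values of a column were whole multiples (relative tolerance 1e-06) of its lowest value above 0. Taking that value as 1 read gave the reads and the depth, 111080 to 1002869 reads per library. The KO female FA libraries have few low values, so that this step rests on less there. Columns of the authors' own comparisons hold fold changes and p-values and were not used.

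Of the 403 miRNAs, those with a value of at least 5 in at least 3 libraries were kept (319). log2(value + 1) was fitted with limma 3.58.1 in R 4.3.3 over the 6 KO female libraries with exposure as the term, and p-values were adjusted (Benjamini-Hochberg) over all tested miRNAs with a threshold of 0.1. This threshold follows the study, which tested with a count method. A difference of the O3 change was fitted with exposure, table and their interaction over both tables, over miRNAs that passed the filter in both tables (in at least 4 libraries for co-ex females). With 3 libraries against 3, an exact two-sided permutation test of a single miRNA cannot go below 0.1, so such tests were not given. Alternatives were scaling to the library total, pseudocounts of 0.1 and 10, other filters, the threshold of 0.05, edgeR 4.0.16 and DESeq2 1.42.0 on the recovered reads, a replicate block, the 4 libraries of neighbouring numbers, and leaving out each library. The scripts were tested on simulated data. Sequences and hairpin loci came from RefSeq (GRCm38.p6) and copies in transcripts from GENCODE vM21. miRNAs were named by rule where they were among the 16 largest rises or 12 largest falls that passed without overlap, the 10 most abundant, the members of a list that passed or its 4 most abundant, other strands of such hairpins, or passed a difference between tables. The other calls, sequence relatives and cluster neighbours of a call, miR-6236, miR-8117, miR-1195 and single list members below that rank were named after their values were seen. Members and lists were chosen with earlier results of these data known. Pairs of replicate libraries differed by far more than sampling noise, so each counted as 1 sample.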

Additional observations from a re-analysis of the deposited data

Results flagged for a closer look

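The changes after O3 of 21 miRNAs differed between KO and co-ex females by the interaction of exposure and table in limma, a test of the difference itself. The difference, on the log2 scale and as KO minus co-ex females, was 7.60 for miR-34c-3p, with 3.61 for miR-34c-5p, 4.28 for miR-34b-3p and 3.61 for miR-449a-5p among the other miRNAs of ciliated cells. Among the epithelial miRNAs it was 4.35 for miR-375-3p, 3.56 for miR-224-5p, 2.68 for miR-429-3p and 2.64 for miR-200a-3p. It was 2.88 for miR-92b-3p and 4.48 for miR-1961. Among miRNAs rich in G and C, repeat-like or of doubted hairpin it was 6.51 for miR-3473e, 5.63 for miR-714, 5.28 for miR-6538, 5.12 for miR-706, 4.54 for miR-2137, 4.07 for miR-690 and 3.91 for miR-6240. It was 5.29 for miR-712-5p, 4.88 for miR-8111 and 3.93 for miR-872-3p. miR-706, miR-712-5p and miR-872-3p had no read in any FA library of KO females, so their differences depend on the pseudocount and are neither measured sizes nor bounds. The sizes for others with few reads in these FA libraries depend on it as well, such as miR-34c-3p (1, 1 and 21 reads) and miR-3473e (0, 0 and 16).

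miR-1306-5p alone had the opposite direction, a difference of -5.64 (SE 1.75, adjusted p = 0.0771 from limma). Its values in KO females were 163, 313 and 401 units after FA and 89.97, 0 and 32.4 after O3, so the 0 in the shallow O3 replicate 2 weighed in its log2 fold change of -4.25, which did not pass within KO females (adjusted p = 0.134 from limma).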

How the results depend on the processing

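Over 16 settings (scalings, pseudocounts, filters, tools, block and libraries left out), all 42 miRNAs kept their direction wherever they were tested, which was in 16 settings for 35 and in 15 for the other 7, left out by the filter of 50. Of the 42, 17 passed in every setting in which they were tested. Counts of 42 miRNAs in all, 32 higher and 10 lower became 62, 44 and 18 with DESeq2, 36, 28 and 8 with edgeR, and 28, 28 and 0 in the 4 libraries of neighbouring numbers, which hold a single FA library. Leaving out each library gave 25 to 52 in all, 21 to 37 higher and 4 to 16 lower. The lowest counts came without O3 replicate 3, and the lower calls numbered 6 without FA replicate 2 and 16 without O3 replicate 1. The median log2 fold change moved from 0.06 by 0.19 with scaling to the library total and by -0.11 with edgeR and with DESeq2. The difference from KO males gave 0 in all settings.

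The 21 differences from co-ex females became 32 with that scaling and 12 at a threshold of 0.05, and 9 to 31 as each library was left out, the lowest counts being 9 and 10 (co-ex FA replicates 4 and 1 removed) and 12 (KO O3 replicate 2 removed). With the replicate number as a block there were 37 calls in KO females (29 higher and 8 lower) and 14 differences from co-ex females. Correlations of the deviations of same-numbered libraries were -0.015, 0.0058 and 0.042. These 3 values cannot show whether the libraries were paired, and what the replicate numbers mark is not given in the sources used here. Of the miRNAs named, 12 changed sign in some setting, none of which had passed the threshold. As libraries were left out, the log2 fold changes lay between -1.35 and 0.48 for miR-451a, -0.30 and 2.60 for miR-6236, -1.44 and 3.39 for miR-8117, -0.57 and 0.32 for miR-155-5p, -1.94 and 0.76 for miR-210-3p, and -0.14 and 1.58 for miR-92b-5p. They lay between -0.13 and 0.027 for miR-23a-3p, -0.23 and 0.24 for miR-25-3p, -0.080 and 0.21 for miR-92a-3p, -0.43 and 0.10 for miR-98-5p, and -0.27 and 0.19 for miR-99b-5p. With scaling to the library total they were 0.14 for miR-23a-3p, 0.15 for miR-25-3p and 0.0051 for miR-98-5p. In the 4 libraries of neighbouring numbers they were 0.084 for miR-23a-3p, -0.24 for miR-92a-3p and -1.01 for miR-96-5p. The causes were not tested. The depth of O3 replicate 2, where 3 reads equal 12.9 units, limits what can be said of miRNAs with few reads.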
